A study of Mus musculus with 6 samples.

Results

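The 36 genes described here encode the machinery with which fat cells store and release lipid. They were chosen as a list of symbols by what they encode, with no threshold on their values but with earlier results of these data known. They comprise 5 genes of the lipid droplet coat and of droplet fusion, 4 transcription factors of fat cells and 6 genes of fatty acid, glycerol and glucose uptake and transport. The others are 5 genes of lipolysis, 7 of fatty acid synthesis, 5 of glycerol phosphate and triglyceride assembly and 4 other genes abundant in fat. All 36 were on the array, with 53 probes in all, among 20130 genes with a symbol, and all 36 were among the 16400 genes tested. The probe that stands for each gene was well above background on all 6 arrays.

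Skin wounds of male C57/BL6 mice on day 3 after injury were compared between 3 wild-type (WT) and 3 FoxO1 +/- samples. Each mouse had 4 full-thickness dorsal wounds of 4 mm, which were taken out with a 6 mm punch, so that the tissue held the wound and a rim of the skin around it. All 6 samples were wounds, unwounded skin was not analysed here, and the labels give neither the ages nor how the FoxO1 allele was disrupted or in which cells. The titles number the samples within a genotype but do not say that each is 1 animal. The series text does not say how wounds or experiments were pooled, so that p-values speak only of the spread from array to array. RNA was measured on 1-colour Agilent arrays. Levels are log2 values relative to each array's 75th percentile of signal, differences are FoxO1 +/- minus WT on that scale, so that a difference of 1 is a 2-fold higher signal, and values of 3 arrays are given in the order of replicates 1, 2 and 3. Levels of different genes come from different probes and are not compared with each other.

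White fat cells store triglyceride in a large droplet coated by perilipins. Fatty acids enter through lipoprotein lipase and fatty acid carriers or are made from glucose carbon, and are joined to glycerol phosphate. On adrenergic stimulation the triglyceride is cleaved in turn by adipose triglyceride lipase, hormone-sensitive lipase and monoglyceride lipase. The programme is driven by PPARγ and C/EBPα, and insulin favours storage. FOXO1 is a forkhead transcription factor that insulin signalling keeps out of the nucleus; in cultured fat cell precursors it restrains differentiation, and in fat it is known to act on the adipose triglyceride lipase gene. Mouse skin holds a layer of dermal fat cells, and its sebaceous glands also make and store lipid.

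To show which of the known binding motifs of these regulators lie close to the starts of these genes, RefSeq promoter windows of the mouse build GRCm38.p6 were searched on both strands over the 250 bases before the start. A total of 28 of the 36 genes had 41 windows, against 32851 windows of all genes. The forkhead core GTAAACA was in 2 of the 41 windows (3.17% of all windows), those of Mgll and Lipe. The C/EBP motif TTGCNNAA was in 3 (9.56% of all), those of Plin1, Cidec and Pparg. The sterol response motif TCACNCCAC was in 1 (1.05% of all), that of Acsl1, and the PPAR and RXR direct repeat AGGNCANAGGNCA was in 0 (0.338% of all). A match is only a run of letters, and the arrays do not measure binding. The 4 stretches that follow belong to members with non-overlapping genotypes (below), run 5′ to 3′ along the gene's strand and have the first match in capitals. They are the Mgll window at chr6:88724162-88724411 on the plus strand, with the forkhead core 241 bases before the start, and 29 bases of the Lipe window at chr7:25390214-25390242 on the minus strand, where the match is on the opposite strand, 119 bases before the start of 1 of its transcripts and within the annotated gene. The other two are 122 bases of the Plin1 window at chr7:79732905-79733026 on the minus strand, which lie outside the annotated gene and hold the first of 2 C/EBP matches, 187 bases before the start, and 30 bases of a Cidec window at chr6:113434944-113434973 on the minus strand, 198 bases before the start and within the annotated gene.
Mgll: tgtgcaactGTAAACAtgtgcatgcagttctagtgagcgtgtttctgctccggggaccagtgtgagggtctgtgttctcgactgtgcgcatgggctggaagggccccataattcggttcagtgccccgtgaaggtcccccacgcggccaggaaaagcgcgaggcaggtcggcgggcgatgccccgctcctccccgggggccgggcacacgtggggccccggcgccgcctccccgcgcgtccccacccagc
Lipe: actctgggctcTGTTTACagcatgtggtt
Plin1: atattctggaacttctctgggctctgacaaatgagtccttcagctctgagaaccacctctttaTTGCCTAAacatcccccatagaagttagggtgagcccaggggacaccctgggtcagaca
Cidec: ggagggctctaTTGCTCAAgggcccatggg

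Foxo1 itself was lower on all 3 FoxO1 +/- arrays. Its brighter probe measured 2.04, 1.81 and 2.32 in WT and 1.54, 1.69 and 1.49 in FoxO1 +/- wounds, a difference of -0.48 (SE 0.14, limma adjusted p 0.649), and its second probe differed by -0.90 (SE 0.14), to 0.538 of the WT signal. Whether these probes read the disrupted allele was not settled. Across the arrays 64.3% to 71.9% of spots were well above background, with the lowest share and the lowest 75th percentile of signal (898.7, against 1095 to 1299) on FoxO1 +/- replicate 3. All arrays shared 1 slide and 1 scan, with the 3 WT arrays and FoxO1 +/- replicate 1 in slide row 1 and FoxO1 +/- replicates 2 and 3 in row 2.

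Most of the storage and lipolysis genes had higher mean levels in FoxO1 +/- wounds, and a few of lipid synthesis and breakdown had lower ones, but no gene of the list passed the adjusted threshold. Of the 36 members, 29 had a higher mean in FoxO1 +/- wounds and 7 a lower one (Cidea, Mgll, Acly, Acaca, Acacb, Me1 and Dgat1), against 53.7% higher over all genes tested. The median difference was 0.44, against 0.01 over all genes. At a limma adjusted p under 0.05 there were 0 members, where 0.0061% of all genes (1 gene) passed, and adjusted p-values of members ran from 0.549 to 0.998. At an unadjusted limma p under 0.05 there were 13 higher members (background 3.43%) and 3 lower ones (background 2.83%). In 12 members every FoxO1 +/- array was above every WT array (background 6.91%), and in 3 every FoxO1 +/- array was below (background 4.57%). The members and the marker lists below were chosen with earlier results of these data known, so that such counts are descriptions and no independent test. With 3 arrays a genotype, the smallest two-sided p of an exact permutation test is 0.1, so that single genes rest on limma.

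**Figure D1:**
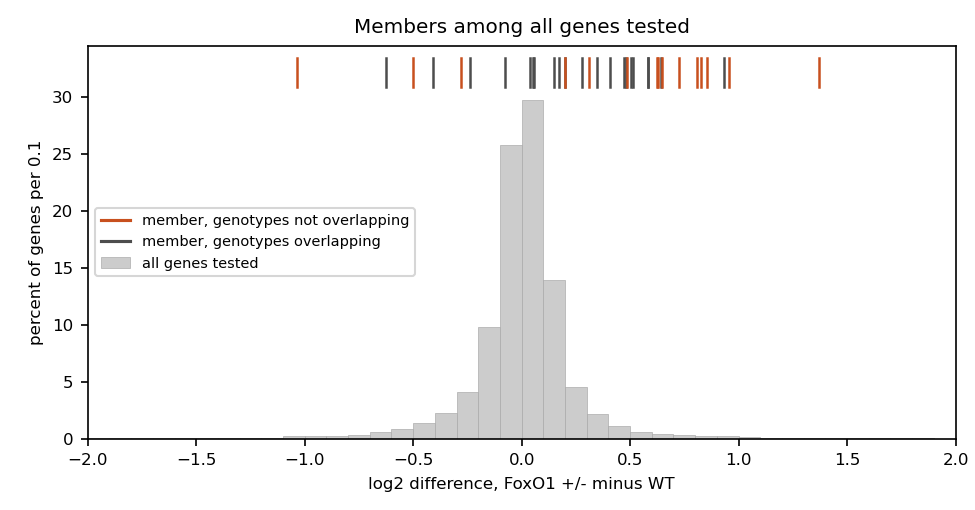
The grey bars give the percent of the 16400 tested genes in each step of 0.1 of the log2 difference (FoxO1 +/- minus WT), from -2 to 2, and each tick above them is 1 of the 36 storage and lipolysis genes, orange where the genotypes did not overlap. Most ticks lie to the right of the bulk of genes: 20 members lie above 0.32, the 95th percentile of all genes, and 4 below the 5th percentile of -0.36.

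The counts of higher members at an unadjusted limma p under 0.05 lean on single arrays of both genotypes. The median difference fell most without WT replicate 2. That array had the lowest level of the 3 WT arrays in 33 of the 36 members, against 33.8% of all genes. It had the lowest of the 6 arrays in 27, against 18.5% of all genes. FoxO1 +/- replicate 3 had the highest level of the 6 in 17 members, against 20.9% of all genes. The mean level of the 36 members was 2.19, 1.65 and 2.32 in WT and 2.27, 2.37 and 2.49 in FoxO1 +/- wounds: WT replicate 2 stands below the other 5, and WT replicate 3 lies between FoxO1 +/- replicates 1 and 2. Without WT replicate 2 the median difference was 0.24, and 6 members were higher (background 4.39%) and 4 lower (background 4.75%) at an unadjusted limma p under 0.05. The 6 were Cidec, Srebf1, Pnpla2, Pnpla3, Thrsp and Car3, and the 4 were Cidea, Mgll, Acly and Acacb. The genotypes then did not overlap in 12 higher members (background 15.8%) and 5 lower ones (background 11%). Without FoxO1 +/- replicate 3 the median was 0.36, with 3 members higher at an unadjusted limma p under 0.05 (background 3.46%). Without FoxO1 +/- replicate 2 it was 0.42, with 6 members higher (background 2.22%). Within slide row 1, where FoxO1 +/- replicate 1 alone stands against the 3 WT arrays and is taken to vary as they do, the median was 0.33, with 0 members higher (background 1.65%) and 1 lower (Acly, background 1.47%) at an unadjusted limma p under 0.05. With slide row as a block the counts and the median were those same values, against 1.52% and 1.4% of all genes.

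**Figure D2:**
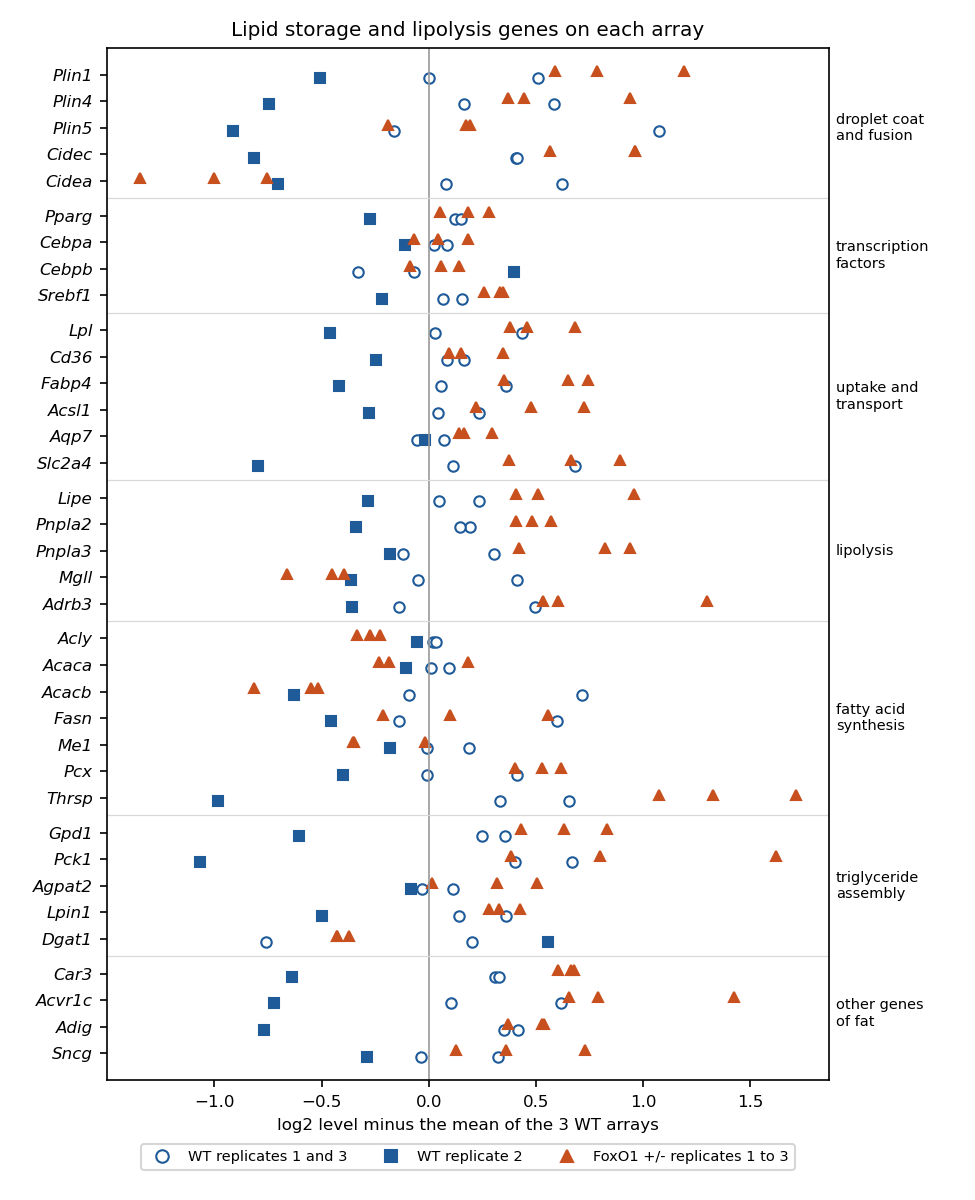
Each row is 1 of the 36 genes, grouped by role, and each symbol is its log2 level on 1 array minus the mean of the 3 WT arrays: open circles for WT replicates 1 and 3, filled squares for WT replicate 2 and triangles for the 3 FoxO1 +/- arrays. The filled square is the lowest of the WT symbols in 33 rows, and in 12 rows all triangles lie to the right of all WT symbols, Thrsp with the widest shift.

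Among the 5 genes of the droplet coat and of droplet fusion, 4 had a higher mean in FoxO1 +/- wounds and 1, Cidea, a lower one. Plin1, the perilipin that coats the fat cell's droplet and gates the access of lipases, measured 1.75, 0.73 and 1.24 in WT and 1.83, 2.03 and 2.43 in FoxO1 +/- wounds. All 3 FoxO1 +/- arrays lay above the WT arrays, though replicate 1 exceeded WT replicate 1 by little, and the difference was 0.86 (SE 0.28, a 1.81-fold signal, limma adjusted p 0.714). Cidec, which passes lipid from small to large droplets, measured 4.58, 3.35 and 4.58 in WT and 4.73, 5.13 and 5.13 in FoxO1 +/- wounds. The WT arrays split into a pair at 4.58 and replicate 2 well below, so that the difference of 0.83 (SE 0.35, limma adjusted p 0.819) became 0.42 without it, and a second Cidec probe differed by 0.93. Plin4, another perilipin of fat cells, differed by 0.58 (SE 0.35) with overlapping genotypes, and by 0.21 without WT replicate 2.

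Cidea, a relative of Cidec that is abundant in brown fat and in sebaceous glands, went the other way. It measured 4.24, 3.46 and 4.79 in WT and 3.41, 3.16 and 2.82 in FoxO1 +/- wounds. Every FoxO1 +/- array was below every WT array, by little in the case of replicate 1 against WT replicate 2, and the difference was -1.03 (SE 0.35, a signal of 0.488 of WT, limma adjusted p 0.722). Unlike that of Cidec, its difference was larger without WT replicate 2 (-1.39, SE 0.24, limma adjusted p 0.177). Plin5, the perilipin of muscle, heart and other oxidative tissues, had a mean difference of 0.06 (SE 0.48). Its WT levels spread over 1.99 (-1.12, -1.87 and 0.11) around the FoxO1 +/- levels (-0.77, -0.79 and -1.15), and its sign changed with the arrays left out (-0.40 without WT replicate 2). The skeletal muscle markers also varied within both genotypes, with mean levels of 3.82, 3.11 and 4.58 in WT and 4.43, 4.13 and 3.06 in FoxO1 +/- wounds, and their part in the Plin5 values was not tested.

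Of the 4 transcription factors, Pparg, Cebpa and Cebpb differed little, and Srebf1 by more. Pparg, the master regulator of fat cell differentiation and storage, measured 2.15, 1.76 and 2.18 in WT and 2.21, 2.31 and 2.08 in FoxO1 +/- wounds. The genotypes overlapped, and the difference of 0.17 (SE 0.14, limma adjusted p 0.915) was 0.04 without WT replicate 2. Srebf1, which encodes the sterol response element binding protein that drives lipogenic genes, measured -1.92, -2.20 and -1.83 in WT and -1.65, -1.64 and -1.73 in FoxO1 +/- wounds. The 2 sets did not overlap, at a difference of 0.31 (SE 0.11, limma adjusted p 0.758) and of 0.20 without WT replicate 2. Cebpa, the partner of Pparg in mature fat cells, differed by 0.05 (SE 0.10), and Cebpb, an early differentiation factor that inflammation also induces, by 0.04 (SE 0.19). Both changed sign with the arrays left out or with the normalization, Cebpa to -0.01 without FoxO1 +/- replicate 3 and Cebpb to -0.13 without WT replicate 1, against 0.24 without WT replicate 2. Cebpb was the only 1 of the 4 factors with its highest level on WT replicate 2 (5.88, against 5.15 to 5.62 on the other 5 arrays). The neutrophil and inflammation markers likewise had their highest mean on that array (6.69, against 5.73 to 6.41), and their part in the Cebpb values was not tested.

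All 6 genes of uptake and transport had higher means in FoxO1 +/- wounds, with a median of 0.49. Fabp4, the fatty acid carrier of the fat cell cytoplasm, measured 7.16, 6.38 and 6.85 in WT and 7.15, 7.45 and 7.54 in FoxO1 +/- wounds. Only FoxO1 +/- replicate 1 overlapped, lying just under WT replicate 1, and the difference was 0.58 (SE 0.22, limma adjusted p 0.780), or 0.37 without WT replicate 2. Lpl, the lipase that frees fatty acids from circulating lipoproteins, measured 4.98, 4.09 and 4.58 in WT and 4.93, 5.23 and 5.01 in FoxO1 +/- wounds. Here too FoxO1 +/- replicate 1 lay just under WT replicate 1. The difference was 0.51 (SE 0.23, limma adjusted p 0.826), its second probe differed by the same 0.51, and without WT replicate 2 the difference was 0.28.

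Acsl1, which activates fatty acids for triglyceride synthesis, differed by 0.47 (SE 0.18), and its second probe by 0.48. Aqp7, the glycerol channel of fat cells, was the 1 uptake and transport gene whose genotypes did not overlap, and it kept a like difference without WT replicate 2 (0.20, SE 0.08, and 0.19). Slc2a4, the insulin-regulated glucose transporter of fat and muscle, differed by 0.64 (SE 0.37), but by 0.24 without WT replicate 2. It was highest on FoxO1 +/- replicate 1 (2.63) and on WT replicate 3 (2.43), where the muscle markers were also highest within each genotype, and their part in the Slc2a4 values was not tested. Cd36, a fatty acid receptor that macrophages and endothelium also carry, differed by 0.20 (SE 0.13), with overlapping genotypes, and by 0.07 without WT replicate 2. Of the 8 endothelial markers all had a higher FoxO1 +/- mean, with a median of 0.18 and summed levels (log2) of 5.58 to 5.68 in WT and 5.80 to 5.96 in FoxO1 +/- wounds, and the median over 7 macrophage markers was 0.14. The part of these cells in the Cd36 and Lpl values was not tested.

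In each of the 5 lipolysis genes the genotypes did not overlap at the probe that stands for the gene, 4 being higher and 1 lower in FoxO1 +/- wounds, against 6.91% and 4.57% of all genes. Pnpla2 encodes adipose triglyceride lipase, which takes the first fatty acid off triglyceride. It measured 4.27, 3.74 and 4.22 in WT and 4.48, 4.56 and 4.65 in FoxO1 +/- wounds, a difference of 0.49 (SE 0.15, limma adjusted p 0.681). The FoxO1 +/- arrays lay within 0.16 of each other, and without WT replicate 2 the difference was 0.32 (SE 0.08, limma adjusted p 0.346). Lipe, the hormone-sensitive lipase that acts next, measured -1.13, -1.65 and -1.32 in WT and -0.96, -0.86 and -0.41 in FoxO1 +/- wounds. Its difference of 0.63 (SE 0.19, limma adjusted p 0.667) stayed between 0.46 and 0.74 whichever array was left out. Within slide row 1, where FoxO1 +/- replicate 1 stands alone, it was 0.41. Pnpla3, a relative of Pnpla2 whose level follows feeding and lipogenesis, measured -2.71, -3.19 and -3.13 in WT and -2.59, -2.19 and -2.07 in FoxO1 +/- wounds. It had the smallest p of these 5 genes, at a difference of 0.73 (SE 0.19, limma adjusted p 0.564). The difference was 0.62 to 0.88 with 1 array left out and 0.42 within slide row 1. Its second probe differed by 0.87.

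Adrb3, the β3-adrenergic receptor through which noradrenaline starts lipolysis in mouse fat, differed by 0.81 (SE 0.29, limma adjusted p 0.773) at its brighter probe. Its second probe, also well above background on all 6 arrays, differed by -0.01 (SE 0.16), so the probes disagree. Mgll, the monoglyceride lipase that frees the last fatty acid and that many other cells also use, was lower. It measured 4.61, 4.30 and 5.08 in WT and 4.21, 4.27 and 4.01 in FoxO1 +/- wounds. The lowest WT array exceeded the highest FoxO1 +/- array by little. The difference was -0.50 (SE 0.20, limma adjusted p 0.797), or -0.68 (SE 0.17, limma adjusted p 0.310) without WT replicate 2. All 4 Mgll probes differed in the same direction, by -0.52 to -0.31. Mgll was the only lipolysis gene with a lower FoxO1 +/- mean. Whether the forkhead core in 1 of the 2 promoter windows each of Mgll and Lipe bears on their levels was not tested.

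**Figure D3:**
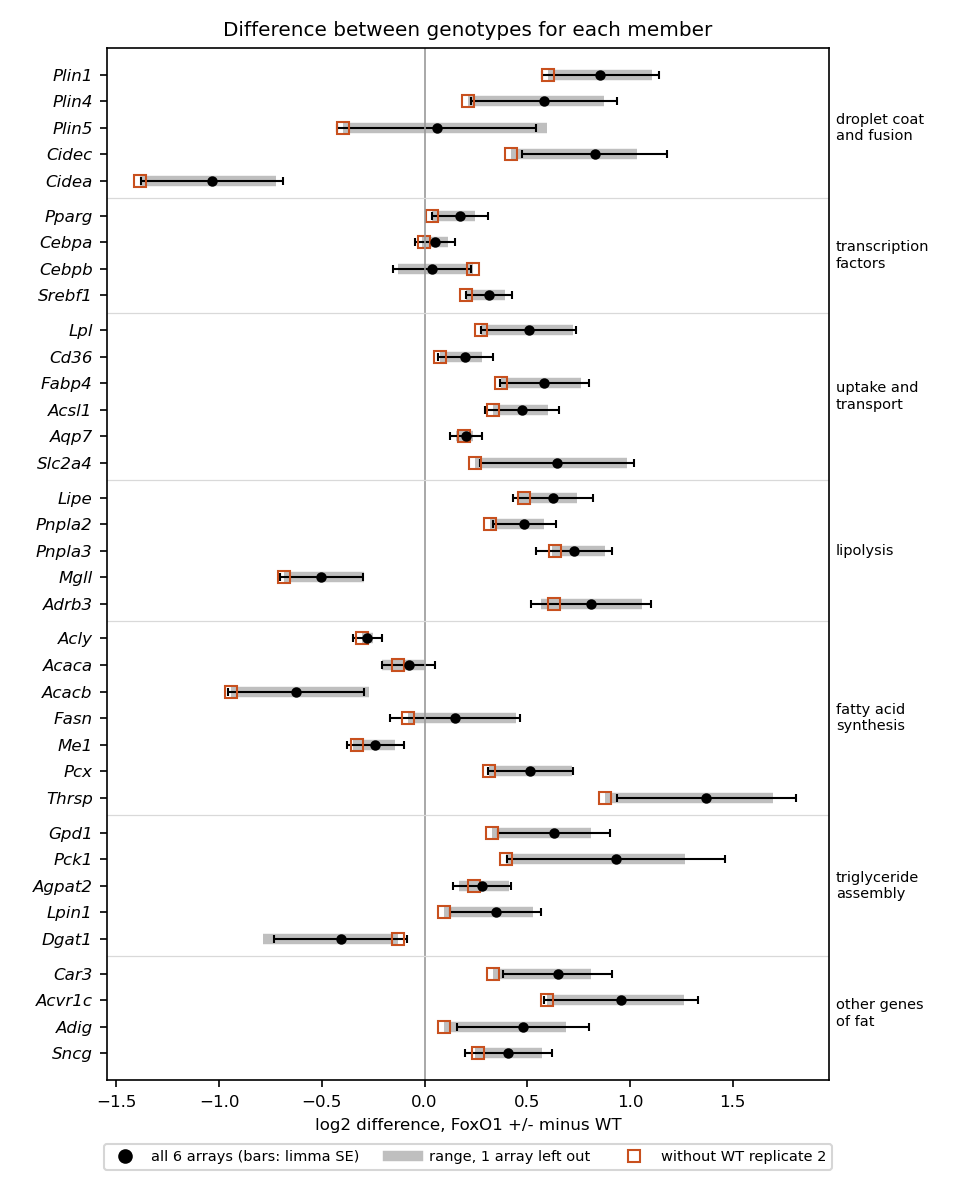
For each of the 36 genes the black point is the log2 difference, FoxO1 +/- minus WT, with its limma standard error, the grey bar is the range with 1 array left out at a time, and the open square is the value without WT replicate 2. The squares lie towards 0 from the points in most higher genes and away from 0 in genes such as Cidea, Mgll and Acacb, and the bars of Plin5, Cebpa, Cebpb and Fasn span 0.

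The 7 genes of fatty acid synthesis split, 3 higher and 4 lower, with a median of -0.08. Acly, the ATP citrate lyase that makes cytosolic acetyl-CoA, had the smallest p of all 36 members. It measured 4.66, 4.58 and 4.67 in WT and 4.30, 4.37 and 4.41 in FoxO1 +/- wounds. Its spread within a genotype was at most 0.11, less than the gap between genotypes, and the difference was -0.28 (SE 0.07, limma adjusted p 0.549), from -0.30 to -0.25 with 1 array left out and -0.33 (SE 0.11) within slide row 1. Its second probe differed by -0.12 (SE 0.17) with overlapping genotypes. Acacb, the acetyl-CoA carboxylase at the mitochondrial surface, differed by -0.63 (SE 0.33). Without WT replicate 2 it differed by -0.94 (SE 0.26, limma adjusted p 0.360), and its genotypes no longer overlapped. Acaca, the cytosolic carboxylase, differed by -0.08 (SE 0.13), or by -0.13 without WT replicate 2. Its 3 kept probes disagreed in sign, from -0.27 (SE 0.24) to 0.14 (SE 0.18). The probe at -0.27 was dim, well above background on only 1 FoxO1 +/- array.

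Fasn, the fatty acid synthase, did not follow Acly. It measured -1.32, -1.64 and -0.58 in WT and -1.39, -1.08 and -0.62 in FoxO1 +/- wounds. The genotypes covered the same range, and the difference of 0.15 (SE 0.32, limma adjusted p 0.992) turned to -0.08 without WT replicate 2 and to -0.21 within slide row 1. Me1, the malic enzyme that supplies NADPH for synthesis, differed by -0.24 (SE 0.14), and its 3 probes by -0.29 to -0.24. Pcx, the pyruvate carboxylase that replenishes oxaloacetate, was higher by 0.52 (SE 0.21), and by 0.31 without WT replicate 2. Thrsp, a nuclear protein of lipogenic tissues induced by thyroid hormone and carbohydrate, had the largest difference of the 36. It measured 2.43, 1.12 and 2.75 in WT and 3.17, 3.81 and 3.43 in FoxO1 +/- wounds. The genotypes did not overlap. The difference was 1.37 (SE 0.44, a 2.59-fold signal, limma adjusted p 0.681), or 0.88 (SE 0.22, limma adjusted p 0.308) without WT replicate 2.

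Of the 5 genes of glycerol phosphate and triglyceride assembly, 4 had higher means. Gpd1, which makes glycerol phosphate from a glycolytic intermediate, measured 4.14, 3.29 and 4.25 in WT and 4.32, 4.72 and 4.53 in FoxO1 +/- wounds. The genotypes did not overlap, at a difference of 0.63 (SE 0.27, limma adjusted p 0.819) and of 0.33 without WT replicate 2. Pck1, the enzyme of glyceroneogenesis and a known FOXO1 target in liver, measured 1.94, 0.47 and 2.21 in WT and 2.34, 1.92 and 3.16 in FoxO1 +/- wounds. Both genotypes spread over more than 1 unit and overlapped, and the difference of 0.93 (SE 0.53, limma adjusted p 0.866) became 0.40 without WT replicate 2. Agpat2, the acyltransferase whose loss causes lipodystrophy, differed by 0.28 (SE 0.14), but by 0.01 within slide row 1. Lpin1, the phosphatidate phosphatase lipin, differed by 0.35 (SE 0.22), and by 0.10 without WT replicate 2. Dgat1, which adds the last fatty acid, differed by -0.41 (SE 0.32). Its WT levels spread from 1.51 to 2.83 around FoxO1 +/- levels of 1.84 to 1.90, so that its lower mean rests on WT replicates 2 and 3, and the difference was -0.13 without WT replicate 2.

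The other 4 genes abundant in fat had higher means, with a median of 0.56. Car3, the carbonic anhydrase that fat and slow muscle hold in large amounts, measured 6.67, 5.73 and 6.69 in WT and 6.97, 7.04 and 7.03 in FoxO1 +/- wounds. The FoxO1 +/- arrays lay within 0.08 of each other and above all WT arrays. The difference was 0.65 (SE 0.27, limma adjusted p 0.797), or 0.33 (SE 0.07, limma adjusted p 0.254) without WT replicate 2. Acvr1c, the receptor ALK7 that restrains lipolysis in fat cells, measured -1.02, -2.36 and -1.54 in WT and -0.85, -0.99 and -0.22 in FoxO1 +/- wounds. The genotypes did not overlap, at a difference of 0.96 (SE 0.37, limma adjusted p 0.797), or 0.59 without WT replicate 2, and its second probe differed by 1.02. Adig, a small adipocyte protein known as adipogenin, differed by 0.48 (SE 0.32), and by 0.10 without WT replicate 2. Sncg, the γ-synuclein of fat cells and peripheral neurons, differed by 0.41 (SE 0.21), by 0.26 without WT replicate 2 and by 0.13 within slide row 1. Both overlapped between genotypes.

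Of the 12 members with several kept probes, only Adrb3 and Acaca had probes that differed in sign.

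The markers of the cells that could carry these transcripts did not all move alike. In RNA from whole tissue, fewer cells of a type and less RNA per cell cannot be told apart. All 6 adipocyte markers outside the members were measured above background on every array. Each had a higher FoxO1 +/- mean, with a median difference of 0.90, and without WT replicate 2 the differences ran from 0.44 (Cfd) to 1.39 (Retn). Their summed level (log2), which rests mostly on Cfd, was 6.21 to 7.40 in WT and 7.73 to 8.10 in FoxO1 +/- wounds. Adipoq, Retn, Cfd and Nnat were lowest on WT replicate 2, as most members were. Adipoq, the adiponectin gene, measured 4.12, 2.96 and 3.88 in WT and 4.41, 4.56 and 4.78 in FoxO1 +/- wounds, and its difference of 0.94 became 0.59 without that array. Lep was lowest on WT replicate 3. Rbp4, a retinol carrier that fat and liver secrete, was lowest on WT replicate 1. It measured 2.81, 3.00 and 2.93 in WT and 3.46, 3.78 and 3.72 in FoxO1 +/- wounds. The median over 6 markers of adipocyte progenitors was 0.01, with 3 higher, and their summed level was 7.30 to 7.42 in WT and 7.18 to 7.38 in FoxO1 +/- wounds.

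Sebaceous gland markers differed in the opposite direction. Of the 9 measured, 8 had a lower FoxO1 +/- mean, with a median of -1.03. In 3 of the 9 every FoxO1 +/- array was below every WT array (background 4.57%). Soat1, Mgst1 and Mc5r barely differed (-0.14, 0.002 and -0.05). The mean level over the 9 was 1.50, 0.99 and 1.94 in WT and 0.87, 0.73 and 0.38 in FoxO1 +/- wounds. Their summed level (log2) was 6.50 to 7.29 in WT and 6.10 to 6.17 in FoxO1 +/- wounds. In WT this sum rests mostly on Krt79, a keratin of the gland's duct (6.84, 5.73 and 6.63 in WT and 5.04, 4.96 and 5.04 in FoxO1 +/- wounds). Far2, another listed marker, was well above background on 2 WT arrays and 0 FoxO1 +/- arrays. The mean level of the list was highest on WT replicate 3, whereas its summed level was highest on WT replicate 1 (7.29, against 7.26 on replicate 3), as was Krt79. Cidea, Mgll, Acly, Acacb and Me1 had their highest level on WT replicate 3 and lower FoxO1 +/- means, and the part of sebaceous cells in these values was not tested. Ucp1, the defining gene of brown and beige fat cells, was well above background on 1 WT array and 2 FoxO1 +/- arrays and was not tested. The median over the other 5 brown and beige fat markers was 0.08, with summed levels of 3.94 to 5.19 and of 4.12 to 5.23. These sums rest mostly on Cox8b and Cox7a1. Cox8b measured 3.84, 2.75 and 4.31 in WT and 4.49, 4.05 and 3.28 in FoxO1 +/- wounds. Within each genotype both genes ordered the arrays as the mean of the muscle markers did, and the part of muscle in these sums was not tested. Elovl3, a fatty acid elongase that is in both the brown fat and the sebaceous list, differed by -1.41 (SE 0.27, limma adjusted p 0.384), with every FoxO1 +/- array below every WT array.

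The remaining lists overlapped between genotypes in their summed level, apart from endothelium (above) and, by a narrow margin, fibroblasts. Skeletal muscle ran from 7.77 to 9.24 in WT and from 7.80 to 9.1 in FoxO1 +/- wounds (7 of 10 markers higher, median 0.04), and inflammation from 9.16 to 9.78 and from 9.23 to 9.72 (2 of 5 higher, median -0.04). Macrophage markers ran from 8.13 to 8.55 and from 8.37 to 8.46 (6 of 7 higher), keratinocyte markers from 9.80 to 10.12 and from 9.66 to 10.24 (2 of 6 higher, median -0.11) and fibroblast markers from 10.35 to 10.429 and from 10.433 to 10.59 (4 of 5 higher, median 0.07). WT replicate 2, on which most members were lowest, had the lowest summed adipocyte, endothelial, skeletal muscle and brown and beige fat levels of the 6 arrays. It also had the highest summed inflammation and macrophage levels. The part of any of these in the differences of the members was not tested.

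**Figure D4:**
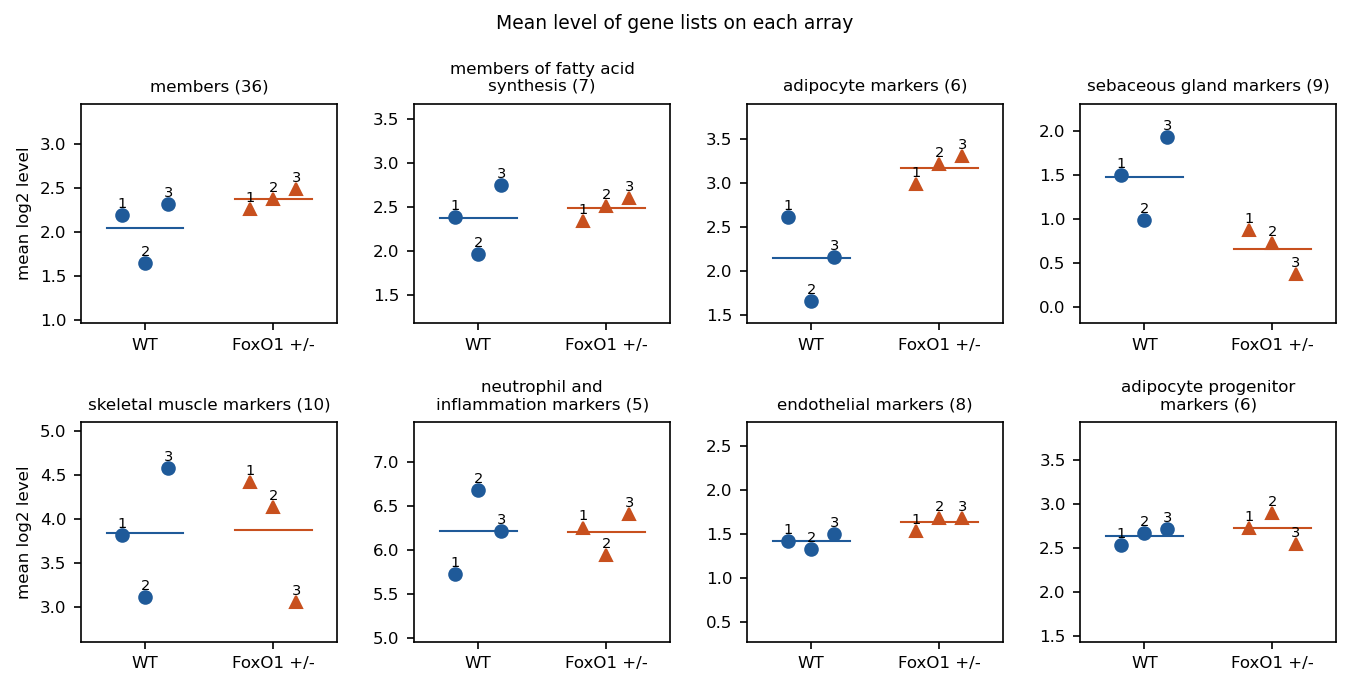
Each panel gives, for 1 list of genes, the mean log2 level on the 3 WT arrays (blue circles) and the 3 FoxO1 +/- arrays (orange triangles), numbered by replicate, with a line at the mean of the 3; all panels span 2.5 log2 units. The adipocyte and sebaceous gland markers separate the genotypes in opposite directions and the endothelial markers by less, while the 36 members, their 7 synthesis genes and the muscle, inflammation and progenitor markers overlap.

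Other genes of lipid storage and lipolysis outside the 36 differed less as a set. Of 38 such genes, all measured, 24 had higher and 14 lower FoxO1 +/- means, with a median of 0.05. A limma adjusted p under 0.05 was reached by 0 of them, and an unadjusted limma p under 0.05 by 4, all higher (background 3.43% higher and 2.83% lower). Mogat1, a monoacylglycerol acyltransferase, had the smallest p (-3.87, -4.67 and -4.36 in WT against -3.64, -3.57 and -3.08 in FoxO1 +/- wounds, a difference of 0.87, SE 0.25, limma adjusted p 0.632). The other 3 were Mogat2, its relative (0.69, SE 0.25), Pde3b, the phosphodiesterase through which insulin damps lipolysis (0.28, SE 0.10), and Cav1, the caveolin of fat cells and endothelium (0.29, SE 0.12).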

How the data were processed

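Total RNA of wound tissue was labelled with Cy3 from 200 ng per sample, per the labels' protocols. Each deposited scanner file gives the intensity of every spot, which the authors extracted with Agilent Feature Extraction 10.7.1.1 per the file headers (9.1 per the submitters' processing notes), background-subtracted within an array and not scaled between arrays. The authors' deposited value table holds the same signal within 0.5%, linear and not centred, with medians of 99.8, 103 and 112 on the WT and 97.2, 98.9 and 82.4 on the FoxO1 +/- arrays.

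Here log2 of the processed signal was taken, outlier-flagged spots were left out, spots of a probe averaged and arrays scaled by subtracting the 75th percentile of their non-control probes. Symbols came from RefSeq accessions matched to the GRCm38.p6 gene table (25869 of 26392 probes with an mRNA accession). Probes stayed in if all 3 arrays of a genotype had them well above background, and the brightest kept probe stood for a gene. The genotypes were compared by two-sided limma tests (version 3.58.1, lmFit with eBayes, run in R 4.3.3), and p-values were adjusted over 16400 genes by Benjamini-Hochberg. The script was tested on simulated data. The number of arrays limits the precision.

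The members, lists and motifs were chosen with earlier results of these data known. Of the members, the value on every array is given for Plin1, Cidec, Fabp4, Pparg, Lpl, Lipe, Pnpla2, Fasn, Acly, Pck1 and Car3, and for the smallest p of each role; Cidea, Plin5, Mgll and Thrsp were added after their values were seen. Of the other lipid genes those with the 4 smallest p-values are named.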

Additional observations from a re-analysis of the deposited data

How the results depend on the processing

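No member passed an adjusted p of 0.05 under any of the 17 alternatives, and the median difference stayed above 0, lowest without WT replicate 2 (0.24) and highest without WT replicate 1 (0.54). The 17 are not independent checks. The slide row block and row 1 give the same differences by design. Dropping the background filter, or asking for signal well above background on all 6 arrays, left the members' median at 0.44. The 13 higher members at an unadjusted limma p under 0.05 became 8 with quantile normalization (2.76% of all genes), 7 with each array's median in place of the 75th percentile and 8 with array weights (4.67%), and ranged from 3 to 15 with 1 array left out (2.22% to 4.39%). They became 0 with slide row as a block (1.52%) and 0 within slide row 1 (1.65%). The 3 lower members became 5 with array weights (4.53% of all genes), 1 with the slide row block (1.4%) and 1 within row 1 (1.47%), and ranged from 1 to 4 with 1 array left out (1.91% to 4.75%). With the array median the split of 7 to 3 stood against 2.44% higher and 3.37% lower over all genes, and with normexp (on median in place of mean signals, chosen after seeing the data) the split of 11 to 3 stood against 5.54% and 1.95%. Members without overlap numbered 12 to 19 higher (9.81% to 15.8% of all genes) and 3 to 5 lower (7.76% to 11%) with 1 array left out. Of the 40 named genes, 36 kept their sign under every alternative. The sign turned for Cebpa with normexp (-0.022), the slide row block and row 1 (-0.069 in both) and array weights (-0.0044), for Cebpb with quantile normalization (-0.054), for Plin5 with array weights (-0.19) and for Fasn with the slide row block and row 1 (-0.21 in both) and array weights (-0.093); with 1 array left out these genes ranged from -0.013 to 0.11, from -0.13 to 0.24, from -0.40 to 0.60 and from -0.082 to 0.45. The cause was not tested. Same-numbered arrays did not deviate together (correlations of -0.07, -0.14 and -0.30). With 3 arrays a genotype, this cannot show whether the numbers pair samples in the design. With the replicate block 9 members were higher (2.3% of all genes) and 2 lower (2.54%) at an unadjusted limma p under 0.05. Each number holds an array of either genotype, so this block leaves the differences and the median (0.44) unchanged by design. Signal over background limits Ucp1 and Far2, and the number of arrays limits every single gene.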
